A study of Mus musculus with 12 samples.

Results

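MiR-221 and miR-222 are a pair of mouse microRNAs made from neighbouring hairpins on the X chromosome. They were taken by name (mmu-miR-221 and mmu-miR-222) from the deposited table as 2 of the 566 mouse miRNAs, and their signal was followed through all 12 samples. All came from IMM, an immortalized line of mouse macrophages that divides without end in culture, and were profiled on a NanoString nCounter miRNA panel. Cells had gone through 5 passages after thawing, and all groups were grown in the same serum-supplemented DMEM. The 0 min group served as control. The other 3 groups received lipopolysaccharide (LPS), a component of the outer membrane of Gram-negative bacteria, at 100 ng/mL for 30, 60 or 120 min, and no genotype or second agent is named for any group. Each time point had 3 biological replicates, and all 4 groups are the same single cell line with no primary macrophages beside it. No unstimulated group is given at 30, 60 or 120 min, so LPS and time in culture or handling cannot be told apart.

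MicroRNAs are short RNAs cut from hairpins in longer primary transcripts. They lower the output of messenger RNAs that pair with their seed, the bases near the 5′ end. Both hairpins of the pair are released from 1 primary transcript, and the pair is best known for repressing the cell cycle inhibitor p27Kip1 and the receptor Kit. In mouse macrophages miR-222 has also been tied to the reduced inflammatory response after prolonged LPS, through the chromatin remodeller Brg1. None of these targets was measured here.

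The sequences show what the pair shares and where it parts. RefSeq (GRCm38.p6) places both on the minus strand of the X chromosome, the miR-221 hairpin at chrX:19146294-19146388 and the miR-222 hairpin at chrX:19146893-19146971. The hairpins lie 504 bases apart, with miR-222 upstream in the direction of transcription. The mature arms are given 5′ to 3′ with the seed, bases 2 to 8, in capitals, together with miR-1928 from chromosome 1, which has the same seed.
miR-221-3p: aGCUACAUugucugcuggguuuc
miR-222-3p: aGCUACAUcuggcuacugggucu
miR-1928: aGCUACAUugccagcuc
These 3 are all of the 1738 mature miRNAs in the RefSeq table with the seed GCUACAU. The panel names its probes miR-221 and miR-222 without an arm. In the older nomenclature those names denote the 3′ arms printed here. The pair shares its first 8 bases, and 11 of 23 positions are identical when the mature sequences are laid side by side from the 5′ end. The first difference is U9C (positions counted from 1 at the 5′ end, the miR-221 base first), followed by a run of differences through G17U. The hairpins that carry these arms are printed with the mature 3′ arm in capitals.
Mir221: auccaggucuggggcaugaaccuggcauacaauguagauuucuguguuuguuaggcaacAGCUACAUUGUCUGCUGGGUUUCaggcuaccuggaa
Mir222: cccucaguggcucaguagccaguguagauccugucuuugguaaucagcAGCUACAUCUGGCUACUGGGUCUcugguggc

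Mouse miRNA counts ran from 114754 to 313170 per sample, and 0 min replicate 1 had the fewest. The deposited signal has the form of counts times a factor per sample, with entries under 20 counts or under a signal of 20 listed as 20, called the floor here. In 0 min replicate 1, whose factor is 2.26, a floored entry can hide a signal of up to 45.3. Most miRNAs had a higher signal after LPS on this scale. Over the 166 miRNAs tested, the change from 0 min had a median (log2) of 0.28 after 30 min, 0.43 after 60 min and 0.57 after 120 min. Results are therefore also given under top-100 scaling (medians -0.06, -0.03 and -0.06). It divides each sample by the geometric mean, in that sample, of the 100 miRNAs with the highest mean over the 12 samples. Results are given as well under scaling to the added ligation controls (-0.52, -0.38 and -0.18). The label of a macrophage line was checked against marker miRNAs. All 5 blood-lineage and macrophage markers (miR-142-3p, miR-142-5p, miR-223, miR-146a and miR-21) were above the floor in every sample, with a summed signal from 5206 to 28695. The sums were at most 106.5 for 7 epithelial, 50.4 for 4 muscle, 89.4 for 4 nervous system and 26.3 for 1 lymphocyte marker, and the liver marker miR-122 was at the floor throughout. Of 4 mesenchymal markers, miR-143 and miR-214 were at the floor throughout while miR-199a-3p averaged 560.6.

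MiR-221, the abundant member, did not pass as higher at 30 or 60 min and was higher at 120 min. At 0 min its signal was 357.8, 213.8 and 157.1 in replicates 1, 2 and 3. At 30 min it was 255.1, 163.0 and 242.2, and at 60 min 374.9, 336.5 and 164.4. The samples of these 3 time points overlapped one another. At 120 min the signal was 807.5, 498.3 and 515.6, and all 3 samples lay above each of the other 9. Of the tested miRNAs, 34.9% had all 3 samples above those of 0 min and 24.7% above those of 30 min. The share that lay above all 9, as miR-221 did, was not computed. The group means were 242.9 ± 103.5 (SD, n = 3) at 0 min, 220.1 ± 49.9 at 30 min, 292.0 ± 112.1 at 60 min and 607.2 ± 173.7 at 120 min. On the deposited scale the times thus ran 30, 0, 60 and 120 min in order of mean level. There the first 3 did not differ beyond their spread. With top-100 scaling the order was 30, 60, 0 and 120 min (means 219.5, 258.3, 296.1 and 490.2). Behind the deposited values stand between 158 and 737 counts per sample, far above the highest negative control of any sample (24 to 36 counts). Among the 566 mouse miRNAs, miR-221 ranked 53rd by mean signal at 0 min, 64th at 30 min, 57th at 60 min and 46th at 120 min.

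**Figure D1:**
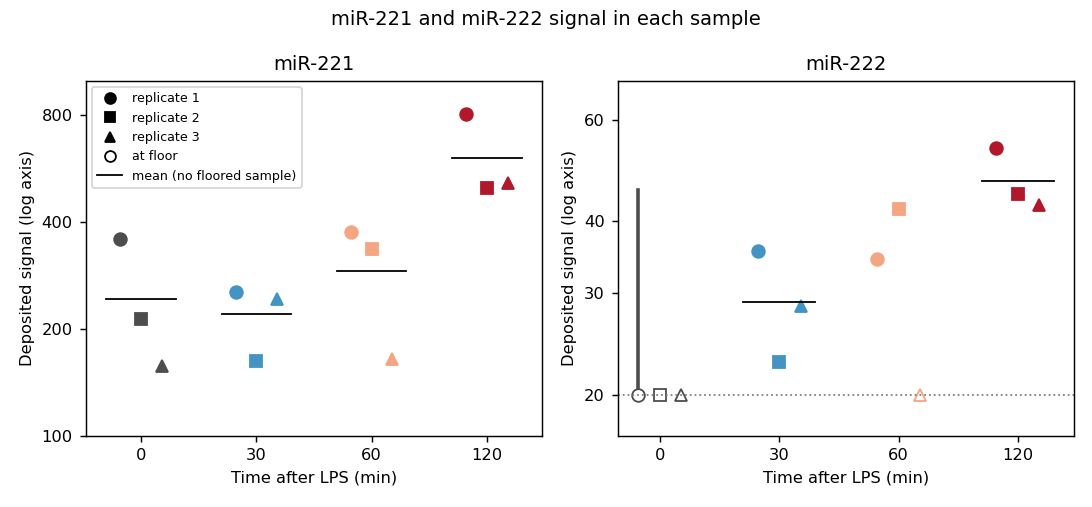
Deposited signal (log axis) of miR-221 (left) and miR-222 (right) in each sample by time after LPS in minutes. Marker shapes give the replicate, open markers are samples listed at the floor of 20 (dotted line), the vertical line above the open marker in 0 min replicate 1 spans what that floored entry can hide, and horizontal bars are means of groups with no floored sample. The 3 samples at 120 min lie above every other sample for both miRNAs, while the floored entry of 0 min replicate 1 can reach 45.3. Of the tested miRNAs, 34.9% had all 3 samples at 120 min above those of 0 min.

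Against 0 min the rise of miR-221 passed the test at 120 min. Its log2 change was 1.37 ± 0.38 (SE) with an adjusted p of 0.00324 in limma, and 36 of the 166 tested miRNAs (21.7%) passed in that comparison, all of them higher. All 3 samples lay above the 0 min samples, as did those of 34.9% of the tested miRNAs. Relative to the median of all tested miRNAs the change was 0.79. Under top-100 scaling it was 0.73 ± 0.16 (adjusted p = 0.00355 in limma, with 24 miRNAs, 14.5%, higher and 45, 27.1%, lower), and under ligation control scaling 0.61 ± 0.21 (adjusted p = 0.0327, with 15, 9.04%, higher and 48, 28.9%, lower). The call on the deposited scale ended without 0 min replicate 3 (1.10, adjusted p = 0.0717), and its adjusted p ran from 8.88e-05 to 0.124 over all alternatives. Under top-100 scaling it passed without any one of the 12 samples (0.62 to 0.79). The exact permutation test of 3 against 3 samples gave p = 0.1 on both the deposited and the top-100 scale, the smallest such a design allows. On the deposited scale limma gave every miRNA the same SE of 0.38, so its small p-values draw on the spread of the whole panel. In these bulk samples fewer cells with an miRNA and less of it per cell cannot be told apart.

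At 30 and 60 min miR-221 gave no rise. The log2 change from 0 min was -0.08 ± 0.38 at 30 min (adjusted p = 0.974 in limma) and 0.26 ± 0.38 at 60 min (adjusted p = 0.714), where 3.01% and 10.8% of the tested miRNAs passed. Both changes were below the median of all tested miRNAs, by -0.37 and -0.17. Under top-100 scaling the 30 min samples, at 230.7, 200.3 and 227.6, all lay below the 0 min samples, at 317.1, 317.7 and 253.4. All 3 samples lay below in 22.9% of the tested miRNAs. The difference was -0.42 ± 0.16 and did not pass (adjusted p = 0.09 in limma, exact permutation p = 0.1), where 0.602% of the tested miRNAs did. At 60 min the top-100 scaled change was -0.21 ± 0.16, opposite in sign to the deposited scale. Under ligation control scaling miR-221 was lower at both times, by -0.90 ± 0.21 at 30 min (adjusted p = 0.00381) and -0.56 ± 0.21 at 60 min (adjusted p = 0.0436), in comparisons in which 79 and 62 of the 166 miRNAs (47.6% and 37.3%) were lower. The ligation controls themselves differed between the groups, with 141.8, 278.4 and 293.1 counts per 1000 positive control counts at 0 min and 384.1 to 528.8 in the 9 stimulated samples. Their part in these values was not tested.

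The late timing of miR-221 was tested between the stimulated groups. On the deposited scale the fold changes between these groups do not use the 0 min samples. The SE and the p-values do, since all samples were fitted together, and so does the filter. From 30 to 120 min 6.63% of the tested miRNAs passed. MiR-221 rose there by a log2 change of 1.45 ± 0.38 (adjusted p = 0.00307 in limma). The same change was 1.16 ± 0.16 under top-100 scaling (adjusted p = 0.000725, with 10.2% of miRNAs higher) and 1.51 ± 0.21 under ligation control scaling (adjusted p = 6.54e-05, with 23.5% higher). On the deposited scale the call ended without 30 min replicate 2 (1.25, adjusted p = 0.0811). From 60 to 120 min the change was 1.10 ± 0.38 and did not pass (adjusted p = 0.117), as none of the 166 miRNAs did on that scale (0.0%, with 15 at an unadjusted p under 0.05). Under top-100 scaling it was 0.94 ± 0.16 and passed (adjusted p = 0.0109 in limma), in a comparison with 4 miRNAs (2.41%) higher and 1 lower. Under ligation control scaling it was 1.17 ± 0.21 (adjusted p = 0.00463, with 5.42% higher). The top-100 call ended without 60 min replicate 2 (0.95, adjusted p = 0.0524) or 120 min replicate 3 (0.89, adjusted p = 0.0709), and the deposited scale passed without 0 min replicate 1 (1.10, adjusted p = 0.031), with an SE of 0.33. From 30 to 60 min the change was 0.35 ± 0.38 (adjusted p = 0.998), and 0.602% of miRNAs passed.

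**Figure D2:**
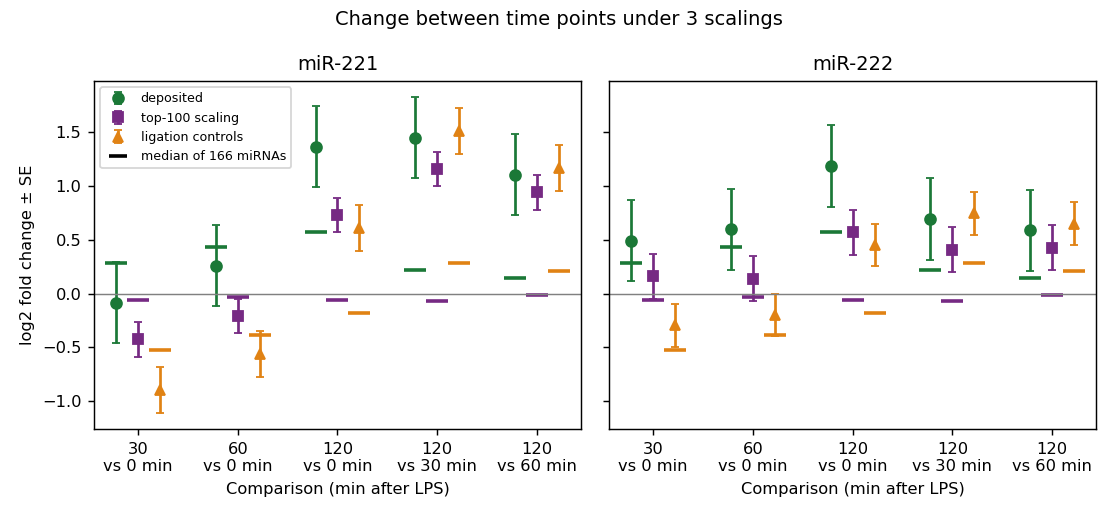
Log2 fold change with its standard error between time points for miR-221 (left) and miR-222 (right) on the deposited scale (circles), under top-100 scaling (squares) and under ligation control scaling (triangles), with short bars for the median change of the 166 tested miRNAs on the same scale. The changes of miR-221 to 120 min lie above the median bars on all 3 scales, whereas at 30 and 60 min against 0 min they lie below them.

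MiR-222, the scarce member, lay close to background. None of the 3 samples at 0 min rose above the floor. At 30 min its signal was 35.6, 22.9 and 28.5 in replicates 1, 2 and 3, and at 60 min it was 34.5 and 42.1 with replicate 3 at the floor. At 120 min it was 53.7, 44.6 and 42.7, above every other measured value of this probe. In counts the 30 min samples held 30, 23 and 24, set against a highest negative control of 27, 27 and 33 in the same samples. The 60 min samples above the floor held 33 and 32 counts against 36 and 30. The 120 min samples held 49, 56 and 57 counts against 33, 24 and 28, so miR-222 cleared every negative control of its own sample in all 3 samples at 120 min. Before that it did so in 30 min replicate 1 and 60 min replicate 2 by 3 and 2 counts.

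Because of the floor, the change of miR-222 from rest is a bound. The fitted log2 change at 120 min was 1.19 ± 0.38 (adjusted p = 0.0138 in limma), with 21.7% of the tested miRNAs passing, but its size depends on what the floored entries hide. With each 0 min entry at the largest signal it can stand for (a mean of 28.4), miR-222 was at least 1.65-fold higher at 120 min on the deposited scale. The bound was 2.35-fold without 0 min replicate 1, 1.15-fold under top-100 scaling and 1.04-fold under ligation control scaling. With a common floor of 45.3 in all samples the change was 0.080 (adjusted p = 0.569), which leaves miR-222 above it in 1 sample of the 12. The call also ended without 0 min replicate 2 (1.19, adjusted p = 0.0502) and without 120 min replicate 1 (1.09, adjusted p = 0.0579). Under top-100 scaling the fitted change was 0.57 ± 0.21 (adjusted p = 0.0455 in limma), where 14.5% of the tested miRNAs were higher and 27.1% lower. The change passed in 3 of the 12 fits that left out 1 sample, with the lowest value, 0.31, without 0 min replicate 1 (adjusted p = 0.204). MiR-222 entered the fit with a mean of 32.0 over the 12 samples, against a filter of 30.5, and its mean over the 9 samples up to 60 min was 27.1. It thus passed the filter through the group in which it was highest. The filter was also set in counts of the negative controls, whereas the 32.0 is a signal scaled per sample. Multiplied by the sample factor, the negative controls averaged 30.0 in 0 min replicate 1 and 7.25 to 16.3 in the other samples. All fits of miR-222 with this filter rest on that entry.

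At the earlier times the fitted log2 change of miR-222 from 0 min was 0.49 ± 0.38 at 30 min (adjusted p = 0.605 in limma) and 0.60 ± 0.38 at 60 min (adjusted p = 0.338), and neither passed. Under ligation control scaling both turned negative (-0.30 and -0.20). All 3 samples at 0 min were floored, so these changes rest on entries listed as 20. With each 0 min entry at its largest possible signal, miR-222 was at least 1.02-fold at 30 min and 0.90-fold at 60 min as deposited. Under ligation control scaling the bounds were 0.61-fold and 0.45-fold. Bounds under 1 do not settle the direction. Between stimulated groups, where fewer entries were floored, miR-222 did not pass on the deposited or the top-100 scale. From 30 to 120 min its log2 change was 0.69 ± 0.38 on the deposited scale (adjusted p = 0.394 in limma) and 0.41 ± 0.21 under top-100 scaling (adjusted p = 0.2). It passed under ligation control scaling (0.75 ± 0.20, adjusted p = 0.01 in limma), where 23.5% of the tested miRNAs were higher and the median change was 0.28. On the deposited scale the 3 samples at 120 min lay above all 3 at 30 min, as did those of 24.7% of the tested miRNAs, whereas under top-100 scaling 2 of the 3 did. From 60 to 120 min the change was 0.59 ± 0.38 (adjusted p = 0.999) and from 30 to 60 min 0.11 ± 0.38 (adjusted p = 0.998).

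Both signals were set against time in minutes over the 12 samples. For miR-221 Pearson's r was 0.76 (permutation p = 0.00475, adjusted p = 0.00475 over the 2 relations) and Spearman's rho 0.71 (permutation p = 0.0135, adjusted p = 0.0135). The relation leaned on the 120 min samples, since r fell to between 0.56 and 0.67 without any 2 of them and was 0.23 over the 9 samples up to 60 min. For miR-222 r was 0.83 (permutation p = 0.00106, adjusted p = 0.00212) and rho 0.84 (permutation p = 0.00167, adjusted p = 0.00334), with r between 0.73 and 0.80 without any 2 samples of 120 min. These values for miR-222 take its 4 floored samples, all 3 of 0 min among them, at 20, although the floored entry of 0 min replicate 1 can hide a signal above 2 of the 3 samples at 120 min. Under top-100 scaling r was 0.70 for miR-221 and 0.65 for miR-222 (permutation test, adjusted p = 0.0196 for both), but rho was 0.43 for both and did not pass (adjusted p = 0.172). Over the 9 samples up to 60 min r was -0.35 and 0.23 on that scale.

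The ratio of miR-221 to miR-222 within a sample is free of the factor by which that sample was scaled. It is a ratio of probe counts, not of molecules, since each probe has its own ligation and capture efficiency. At 30 min the ratio was 7.17, 7.13 and 8.50 in replicates 1, 2 and 3. At 60 min it was 10.9 and 8.0 in replicates 1 and 2 and at least 8.22 in replicate 3. At 120 min it was 15.04, 11.2 and 12.1, above every 30 min sample. At 0 min the floor gives lower bounds of 7.90, 10.7 and 7.85, so that 0 min replicate 2 had a ratio above all 30 min samples. Expressed as a share of the pair's counts, miR-222 made up 12.2% (95% exact Clopper-Pearson interval 8.42% to 17.02%), 12.3% (7.96% to 17.9%) and 10.5% (6.86% to 15.3%) at 30 min. At 120 min it made up 6.23% (4.65% to 8.16%), 8.22% (6.27% to 10.5%) and 7.64% (5.84% to 9.79%). The intervals of the 2 time points overlap in part, and they cover counting error alone.

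From 30 to 120 min the mean log2 ratio differed by 0.74, from 2.92 ± 0.14 (SD, n = 3) to 3.66 ± 0.22, or 1.67-fold (exact permutation test, two-sided, p = 0.1, the smallest that 3 against 3 samples allow). Background moved this value. After the mean of the negative controls in each sample (8.38 to 14.4 counts) was subtracted from both counts, the ratio was 14.1 ± 3.62 at 30 min and 16.3 ± 3.47 at 120 min (SD, n = 3), the samples overlapped and the log2 difference was 0.22. From 60 to 120 min the mean log2 ratio differed by 0.44 over the samples with a value, and by 0.081 after the subtraction, with no test because 1 sample at 60 min was floored.

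**Figure D3:**
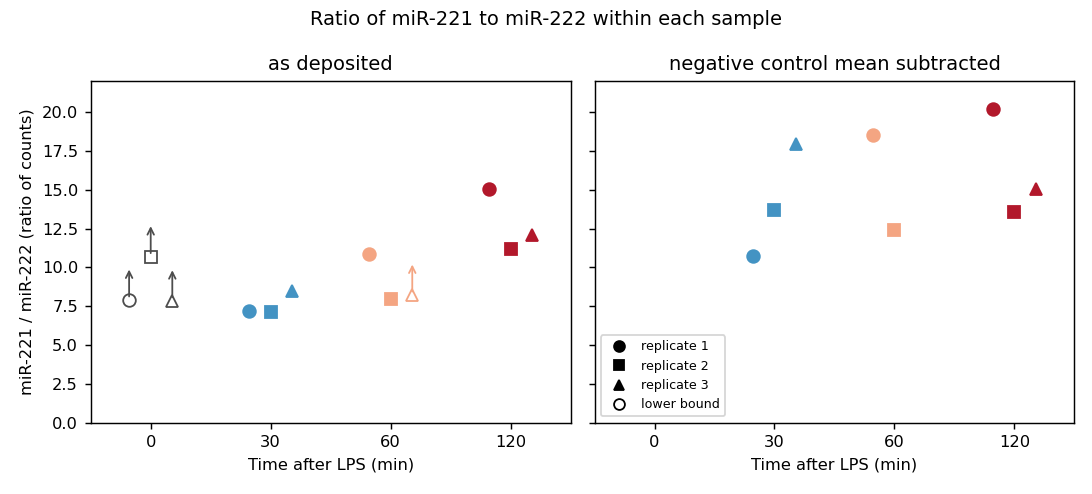
Ratio of miR-221 to miR-222 counts in each sample by time after LPS in minutes, as deposited (left) and with the mean of the sample's negative controls subtracted from both counts (right). Marker shapes give the replicate, and open markers with an arrow are lower bounds from samples with miR-222 at the floor. The deposited ratio is 7.13 to 8.50 at 30 min and 11.2 to 15.04 at 120 min, whereas the subtracted ratios of 10.7 to 17.9 and 13.6 to 20.2 overlap.

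Other miRNAs made from 1 transcript give a scale for such a shift. Of 10 listed pairs, 8 had both members above the floor in enough samples. Their log2 ratio differed between 30 and 120 min by 0.04 to 0.49 in size, with a median of 0.19, and in 1 pair the samples of the 2 times did not overlap. That pair was miR-15b and miR-16, from a cluster that restrains the cell cycle, whose log2 ratio went from 0.02 ± 0.18 (SD, n = 3) to -0.47 ± 0.03. MiR-16 is also made at another locus, and so is miR-29b of the listed pair miR-29a and miR-29b. For miR-23a and miR-27a the difference was 0.19, for miR-191 and miR-425 it was -0.12. The 0.74 of miR-221 and miR-222 lay outside this range as deposited, and the 0.22 after background subtraction lay inside it, although the other pairs were left unsubtracted and had higher counts.

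MiR-1928, the remaining miRNA with the shared seed, stayed near background. It was at the floor in 4 of 12 samples and held 21 to 37 counts in the others. Its mean signal was 34.7 ± 22.96 (SD, n = 3) at 0 min and 26.8 ± 11.9 at 120 min, and with an overall mean of 29.5 it fell below the filter and was not tested. Of the 3 miRNAs with this seed, miR-221 was thus the 1 with a signal well above background at every time.

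The miRNA whose profile was most like that of miR-221 was miR-146a, which dampens Toll-like receptor signalling by repressing Traf6 and Irak1. Over the 12 samples the top-100 scaled log2 signals correlated with r = 0.95, against a median of -0.15 for the 165 other tested miRNAs. On the deposited scale r was 0.98, where samples share their scaling factors and the median was 0.66. Top-100 scaled miR-146a was 3182 ± 289.2 (SD, n = 3) at 0 min, 2770 ± 169.4 at 30 min, 3047 ± 111.5 at 60 min and 4832 ± 463.1 at 120 min. It shared with miR-221 the lowest mean at 30 min and the highest at 120 min, and over the 9 samples up to 60 min r was still 0.80. The log2 change of miR-146a from 0 to 120 min was 1.24 as deposited and 0.60 with top-100 scaling, beside 1.37 and 0.73 for miR-221. Next in likeness came miR-2146 (r = 0.80), miR-361 (0.80), miR-466h (0.79) and miR-99b (0.78). Their log2 changes from 30 to 120 min under top-100 scaling were 1.04, 0.33, 1.34 and 0.31 in that order. Since they were chosen for a profile like that of miR-221, these values are a description with no test. MiR-466h, with mean signals of 20.4, 24.8, 38.5 and 80.4 at the 4 times, entered the fit through its 120 min samples. MiR-222 stood 19th in this order with r = 0.51, with 4 of its 12 values at the floor. These correlations are a description of 12 samples of 1 cell line and carry no test.

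**Figure D4:**
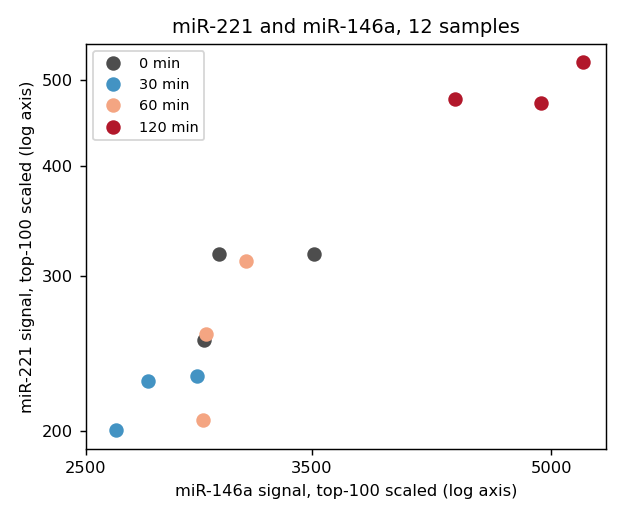
Top-100 scaled signal of miR-221 against that of miR-146a in the 12 samples (both axes logarithmic), coloured by time after LPS. The 3 samples at 120 min stand apart at the upper right, at 471.2 to 523.7 for miR-221, and the 30 min samples lie at the lower left, at 200.3 to 230.7.

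The pair was set beside 2 lists of miRNAs linked to the same biology. The first held 6 miRNAs reported in other cells to repress p27Kip1, of which 4 were tested. At 120 min 2 of the 4 passed as higher on the deposited scale, with 21.7% passing over all tested miRNAs. They were miR-24 (from 85.9 ± 20.2 to 175.8 ± 48.9, SD, n = 3, a log2 change of 1.01 ± 0.38) and miR-152 (0.99 ± 0.38). The median change of the 4 was 0.92, against 0.57 over all tested. MiR-152 lay near the floor at 0 min (20.97 ± 1.69, SD, n = 3) and had 44.67 ± 17.42 at 120 min. In 0 min replicate 1 the floor can hide a signal of up to 45.3. The change of miR-152, and the median that draws on it, thus depend on what the floor hides. Under top-100 scaling miR-24 was higher (0.38 ± 0.13), miR-181a was lower (-0.43 ± 0.14) and miR-152 did not pass (0.38 ± 0.32), in a comparison in which 14.5% were higher and 27.1% lower. MiR-196b changed by 0.84 ± 0.38 and 0.22 ± 0.21 on the 2 scales and did not pass. MiR-148a was above the floor in 2 samples and miR-196a in none.

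The other list held 11 miRNAs linked to feedback or tolerance in Toll-like receptor signalling, of which 5 were tested. At 120 min miR-146a and miR-21, an miRNA induced in many activated cells, were higher with either scaling, and 0 of the 5 were lower. Over all tested miRNAs 21.7% were higher as deposited, and 14.5% were higher and 27.1% lower under top-100 scaling. The median change was 0.87, against 0.57 over all tested, and 0.24 under top-100 scaling, against -0.06. MiR-125b-5p and let-7e had log2 changes of 0.87 ± 0.38 and 0.41 ± 0.38 as deposited and 0.24 ± 0.14 and -0.23 ± 0.14 under top-100 scaling, and did not pass. MiR-132, the remaining tested member, is named after its values were seen. It had 0.37 ± 0.38 and -0.26 ± 0.16 at 120 min and did not pass, but was lower at 60 min under top-100 scaling (-0.47 ± 0.16, adjusted p = 0.0374 in limma), where 11.4% of the tested miRNAs were higher and 19.9% lower. MiR-21 had a log2 change of 0.85 ± 0.38 at 30 min, which did not pass (adjusted p = 0.343 in limma). At 60 min miR-21 had 1.14 ± 0.38 and passed (adjusted p = 0.0337), as did 10.8% of all tested miRNAs on the deposited scale. Its timing was not tested against that of miR-221. MiR-155, miR-212, miR-147 and miR-9 were at the floor in all 12 samples.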

How the data were processed

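Total RNA of 12 samples was profiled on a NanoString mouse miRNA panel of 626 probes, 566 of them mouse miRNAs. The table holds the authors' deposited signal, whose normalization and software are not given in the sources used here. Tested on its values, it has the form of whole counts times 1 factor per sample that sets the geometric mean of Actb, B2m, Gapdh and Rpl19 equal in all samples. All values above the floor were whole within 0.1 of a count, and the floor is 20. Counts per entry were read back through that factor for ratios and intervals. Floored entries hide their counts, so no count model was fitted, although one was planned.

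The 166 mouse miRNAs with a mean above 30.5 (mean plus 2 SD of the negative controls) were fitted as log2(signal + 1) with limma 3.58.1 in R 4.3.3, with 1 mean per time point, and tested two-sided with Benjamini-Hochberg adjustment over all 166 at 0.05. Fold changes are on that log2 scale, which understates changes of low miRNAs. Single values were tested with exact permutation tests and time relations with 100000 resamples (scipy 1.17.1). Counting intervals cover counting error alone. The submitters call the replicates biological without saying how they were separated. The p-values thus measure spread between these samples, which limma on the deposited scale pooled over all tested miRNAs.

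Same-numbered replicates showed no steady correlation of their deviations (from -0.38 to 0.35, 5 of 18 above 0.1), so they were not paired. On the deposited scale a replicate block still lowered the SE from 0.38 to 0.32. It raised the miRNAs passing at 120 against 0 min from 36 to 61, and under top-100 scaling from 69 to 71. The miRNAs named were the pair, the other miRNA with their seed, the 5 most correlated with miR-221 over the 12 samples, members of the 2 lists, and the listed pairs. The members and lists were chosen with earlier results of these data known. Alternatives covered scaling, floor, pseudocount, filter, prior, replicate block and leaving out each sample. The limma step was checked on simulated data drawn independently for each miRNA, without a floor or shared scaling errors. That check does not cover these features of the real values.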

Additional observations from a re-analysis of the deposited data

Results flagged for a closer look

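The change of miR-221 from 0 min differed between 30 and 120 min. The log2 change from 0 min was -0.08 at the former and 1.37 at the latter. The difference of 1.45 ± 0.38 (SE) passed in limma (adjusted p = 0.00307), in a comparison in which 6.63% of the tested miRNAs passed. The call ended with a common floor (adjusted p = 0.0717), with no filter (0.228) and without 30 min replicate 2 (1.25, adjusted p = 0.0811). The difference was 1.16 ± 0.16 under top-100 scaling (adjusted p = 0.000725). On the deposited scale all 3 samples at 120 min lay above all 3 at 30 min (exact permutation p = 0.1, the smallest possible). The same held for 24.7% of the tested miRNAs. Groups of 3 samples were not searched for outlying samples.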

How the results depend on the processing

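Of 431 alternative values, 352 kept their direction and their side of the threshold or moved within the spread. For miR-221 ligation control scaling gave -0.90 at 30 min and -0.56 at 60 min against 0 min, and the 60 min value was -0.21 under top-100 scaling, with or without a common floor or the replicate block. At 120 min against 0 min its 1.37 no longer passed with a common floor (adjusted p = 0.0535) or no filter (0.124), nor did its 1.45 against 30 min (0.0717 and 0.228), limma p-values throughout. Against 60 min miR-221 passed under top-100 scaling (0.94, also with a common floor or the replicate block), ligation control scaling (1.17) and the replicate block (1.10, adjusted p = 0.0182). For miR-222, floored in all 3 samples at 0 min, ligation control scaling gave -0.30 and -0.20 at 30 and 60 min against 0 min. MiR-222 had 0.45 at 120 min against 0 min (not passing) and 0.75 against 30 min (passing, with 23.5% of miRNAs higher) under that scaling. Its 120 min change was 0.080 with a common floor and 0.064 with top-100 scaling added, and its change from 30 to 60 min was -0.022 under top-100 scaling with or without the block. Against time, r was 0.53 and 0.59 under ligation control scaling and did not pass. The log2 ratio differences were 0.22 and 0.081 after background subtraction, which was chosen after seeing the data, as was leaving out samples under top-100 scaling.

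Leaving out each sample, on the deposited and the top-100 scale together, gave ranges for miR-221 of -0.53 to 0.24 (30 against 0 min), -0.35 to 0.63 (60 against 0 min), 0.62 to 1.69 (120 against 0 min), 0.072 to 0.72 (60 against 30 min), 0.74 to 1.33 (120 against 60 min) and 1.09 to 1.57 (120 against 30 min). For miR-222 they were -0.095 to 0.65, -0.12 to 0.90, 0.31 to 1.25, -0.11 to 0.40, 0.29 to 0.81 and 0.33 to 0.85 in the same order. The ratio difference ran from 0.62 to 0.83 (120 against 30 min) and from 0.22 to 0.66 (120 against 60 min). Counts of miRNAs passing ran over all alternatives from 0 to 81 (5 as reported) at 30, 0 to 69 (18) at 60 and 15 to 77 (36) at 120 min against 0 min, 0 to 2 (1) for 60 against 30 min, 0 to 10 (0) for 120 against 60 min and 5 to 40 (11) for 120 against 30 min. The replicate block gave 61 at 120 and 39 at 60 min. The causes were not tested. The planned edgeR and DESeq2 fits were not run, because floored entries hide their counts. MiR-222 had no more than 57 counts in any sample, which limits the precision of its values.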

Other observations

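MiR-29a and miR-29b, a listed pair, showed a larger ratio shift early in the course than between the stimulated groups. MiR-29b is also made at another locus. Their log2 ratio was 0.61 ± 0.29 (SD, n = 3) at 0 min, -0.06 ± 0.39 at 30 min, -0.40 ± 0.32 at 60 min and 0.15 ± 0.63 at 120 min. The pair miR-15b and miR-16 had log2 ratios of 0.44 ± 0.18, 0.02 ± 0.18, -0.29 ± 0.09 and -0.47 ± 0.03 at the same times. Neither shift was tested.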
